A study of Mus musculus with 59 samples.

Results

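Lipolysis in brown adipose tissue (BAT) was followed through 8 genes, taken by name from the 55341 genes listed in each count table: the lipases Pnpla2, Lipe, Mgll, Pnpla3 and Lipa, the lipase coactivator Abhd5, and the lipase inhibitors G0s2 and Hilpda. RNA-seq of the BAT of 59 male C57BL/6J mice aged 8 to 12 weeks was used, with 1 library per mouse. In the thyroid hormone (TH) experiment every mouse received PTU, a drug that blocks thyroid hormone synthesis, TH was given by intraperitoneal injection as T3 with T4, and the groups were wild-type (WT) mice without TH (n = 4), WT mice taken 3, 6, 12 or 24 h after TH (n = 4 each), BATKO mice without TH (n = 5) and BATKO mice taken 24 h after TH (n = 5). In the temperature experiment, with 24 h in the name of its table, CTRL mice were kept at 4 °C (n = 3) or 30 °C (n = 4) and BATKO mice at 4 °C (n = 4) or 30 °C (n = 5). In the diet experiment, with 3.5 d in the name of its table, CTRL mice had a high-fat diet (HFD, n = 4) or chow (n = 4), and BATKO mice had HFD (n = 3) or chow (n = 2). The genetic change carried by BATKO mice and the exact genotype of CTRL mice are not described in the sources used here, so no targeted gene could be checked.

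Fat cells store energy as triglyceride in lipid droplets, and lipolysis releases it one fatty acid at a time. ATGL, the protein of Pnpla2, removes the first fatty acid, HSL (Lipe) acts mainly on the resulting diglyceride, and monoglyceride lipase (Mgll) frees the last fatty acid and glycerol. ATGL is switched on by CGI-58, the protein of Abhd5, which perilipin releases when adrenergic signalling raises cyclic AMP, and it is held back by the small proteins G0S2 and HILPDA. Lysosomal acid lipase (Lipa) hydrolyses lipid that reaches lysosomes, and Pnpla3, a paralogue of ATGL that is known to sequester CGI-58, is strongly induced by feeding and carbohydrate. In BAT the released fatty acids serve as fuel and as activators of UCP1, the mitochondrial protein that dissipates energy as heat.

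All 8 genes are protein coding and were located in GENCODE on GRCm38. Pnpla2 lies at chr7:141455198-141460743 on the plus strand and Lipe at chr7:25379527-25398710 on the minus strand. Mgll lies at chr6:88724412-88828360 (plus), Abhd5 at chr9:122351608-122381524 (plus) and Pnpla3 at chr15:84167837-84187236 (plus). Lipa lies at chr19:34492318-34527474 (minus), G0s2 at chr1:193272161-193273217 (minus) and Hilpda at chr6:29272488-29275446 (plus). An antisense gene shares 918 exonic bases with Lipe (4732471J01Rik), 950 with Abhd5 (A730085K08Rik) and 167 with Mgll (Gm26588), and Gm49513 shares 105 with Pnpla3 on the same strand. The strand setting of the counting is not given in the sources used here. None of these 4 genes exceeded 49.0 normalized counts in any mouse.

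The 250 bases before the RefSeq start site (GRCm38.p6) of 6 members are printed because these genes responded differently to cold and TH: Abhd5, Mgll and Lipa were higher in the cold in both genotypes, Pnpla2 was not, and Pnpla3 and Hilpda were higher 24 h after TH. Where a gene has several RefSeq starts, the most upstream is shown. A promoter was found for 8 of the 8 members. Capitals mark 5 motifs searched on both strands: AGGTCA, the half-site of thyroid hormone receptors and other nuclear receptors, TGACG and TGACGTCA, the short and full forms of the cyclic AMP response element (the first lies inside the second), CACGTG, the E-box, and CCAAT.
Abhd5, chr9:122351366-122351615, plus strand: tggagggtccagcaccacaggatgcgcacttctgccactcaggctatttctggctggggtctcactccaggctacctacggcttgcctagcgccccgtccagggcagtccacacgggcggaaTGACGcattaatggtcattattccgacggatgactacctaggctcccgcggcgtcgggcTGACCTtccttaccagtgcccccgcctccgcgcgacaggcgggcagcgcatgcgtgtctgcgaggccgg
Mgll, chr6:88724162-88724411, plus strand: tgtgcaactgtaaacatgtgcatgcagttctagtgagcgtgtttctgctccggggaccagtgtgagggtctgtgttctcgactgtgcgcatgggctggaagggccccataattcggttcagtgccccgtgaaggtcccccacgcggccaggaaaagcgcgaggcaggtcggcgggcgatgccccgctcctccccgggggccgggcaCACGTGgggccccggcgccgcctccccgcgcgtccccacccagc
Lipa, chr19:34527475-34527724, minus strand: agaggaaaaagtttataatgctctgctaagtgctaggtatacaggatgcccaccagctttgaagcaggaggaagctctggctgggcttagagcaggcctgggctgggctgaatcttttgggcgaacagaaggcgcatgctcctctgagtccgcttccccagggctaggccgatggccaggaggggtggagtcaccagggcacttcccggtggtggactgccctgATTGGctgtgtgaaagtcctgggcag
Pnpla2, chr7:141454938-141455187, plus strand: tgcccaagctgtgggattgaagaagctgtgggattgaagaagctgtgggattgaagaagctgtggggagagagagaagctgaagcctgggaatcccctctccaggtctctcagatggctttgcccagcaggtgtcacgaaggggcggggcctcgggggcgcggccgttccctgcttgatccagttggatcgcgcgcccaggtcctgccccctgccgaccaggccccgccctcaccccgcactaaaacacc
Pnpla3, chr15:84167566-84167815, plus strand: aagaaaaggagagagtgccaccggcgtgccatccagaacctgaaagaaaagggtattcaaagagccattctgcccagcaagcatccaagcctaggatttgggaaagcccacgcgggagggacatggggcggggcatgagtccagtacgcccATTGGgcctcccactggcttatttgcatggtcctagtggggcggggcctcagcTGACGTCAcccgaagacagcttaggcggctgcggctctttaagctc
Hilpda, chr6:29272238-29272487, plus strand: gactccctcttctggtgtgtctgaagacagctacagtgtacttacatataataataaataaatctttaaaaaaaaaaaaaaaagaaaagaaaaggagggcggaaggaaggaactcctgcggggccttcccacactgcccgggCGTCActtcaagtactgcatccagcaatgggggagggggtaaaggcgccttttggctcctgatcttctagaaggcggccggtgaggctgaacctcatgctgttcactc
The Abhd5 window held a TGACG beginning 128 bases before the start and an AGGTCA on the opposite strand, printed as its complement, 69 bases before it. The Mgll window held CACGTG at 44 bases, the Lipa window CCAAT on the opposite strand at 26 bases and the Hilpda window TGACG on the opposite strand at 108 bases. The Pnpla3 window held the full TGACGTCA at 46 bases and CCAAT on the opposite strand at 99 bases, and none of the 5 motifs was in the Pnpla2 window. Of the windows not printed, that of Lipe, not called for cold, held CACGTG at 155 bases. That of G0s2, called higher in the cold in CTRL mice, held TGACG on the opposite strand at 246 bases. For Pnpla3 alone, the bases after the RefSeq start were not found in a GENCODE transcript. Among 32851 RefSeq promoter windows of 250 bases, AGGTCA was present in 14%, TGACG in 17.8%, TGACGTCA in 1.55%, CACGTG in 6.02% and CCAAT in 33.8%. A match describes letters in the window and is not a bound site.

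Library totals ran from 7805938 to 14615534 in WT mice of the TH experiment, from 13593987 to 18073627 in its BATKO mice, from 8008348 to 12887313 in the temperature experiment and from 7612059 to 11533900 in the diet experiment. All 8 members passed the filter on low counts in the 3 experiments. Hilpda had the fewest raw counts, from 6 to 68 per mouse, so its values carry the largest counting error, whereas every other member had at least 180. The brown adipocyte markers Ucp1, Cidea, Dio2, Elovl3, Prdm16 and Ppargc1a were detected in every group. The summed normalized count of 5 skeletal muscle markers varied from 4 to 82065 and exceeded 20000 in 3 mice kept at 30 °C (BATKO mice 13 and 17, CTRL mouse 21). Values below are normalized counts, that is counts scaled to a common library size with TMM factors within each experiment. Adjusted p-values come from the quasi-likelihood test of edgeR and were corrected over all genes tested by the Benjamini-Hochberg method. The labels name each library after a mouse, so that p-values measure the spread between these mice.

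Pnpla2 and G0s2 had the highest mean levels per length of exon in PTU-fed WT mice and in CTRL mice at 30 °C or on chow. Length is that of the merged exons of all annotated transcripts, 5.886 kb for Lipe and 0.871 kb for G0s2. The transcripts in use were not examined, and the order depends on this length. Before this division Lipe had a mean of 9294 normalized counts in PTU-fed WT mice and G0s2 1793. In the BATKO mice of the TH experiment Lipe was above G0s2, at a mean of 1787 against 1605 normalized counts per kb on PTU and 1495 against 1166 after TH. In PTU-fed WT mice the mean level was 4812 ± 672 normalized counts per kb (SD, n = 4) for Pnpla2, 2059 ± 343 for G0s2, 1579 ± 95.5 for Lipe and 1025 ± 73.8 for Mgll. Pnpla3 followed at 764 ± 144, Abhd5 at 518 ± 59.4, Lipa at 324 (range 279 to 392) and Hilpda at 10.9 ± 5.67. In this order the ranges of the 4 mice overlapped for G0s2 and Lipe, at 1695 to 2367 against 1499 to 1714, and for no other pair of neighbours. At 30 °C in CTRL mice the order of the means was the same but for Lipa (124 ± 17.6) and Abhd5 (101 ± 9.41), whose ranges overlapped at 110 to 146 and 91.5 to 111. There G0s2 ranged from 440 to 2851 and overlapped Lipe (890 to 1324), Mgll (504 to 622) and Pnpla3 (234 to 446). On chow in CTRL mice, G0s2 (3729 ± 997) and Pnpla2 (3559 ± 683) overlapped at the top, at 2246 to 4359 and 2883 to 4155. The experiments were normalized separately, so the levels are compared within a group and not across experiments.

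**Figure D1:**
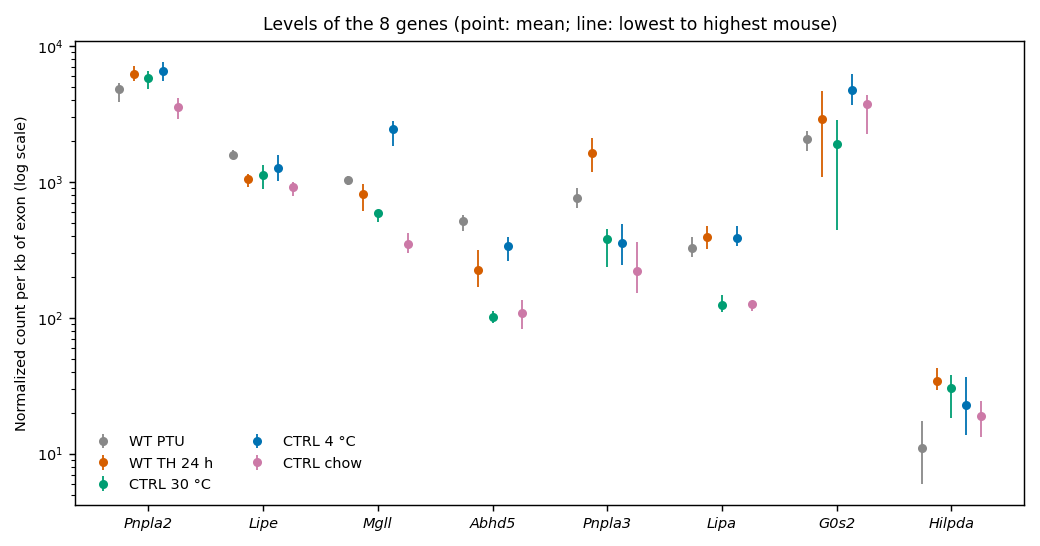
Level of each of the 8 genes in normalized counts per kb of exon, on a log axis, in 5 groups; points are means and lines run from the lowest to the highest mouse. Pnpla2 and G0s2 are at the top and Hilpda is lowest in every group shown.

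The time course asked which genes respond to TH in hypothyroid BAT and how fast. Abhd5 and Lipe were lower 24 h after TH than with PTU alone, whereas Hilpda and Pnpla3 were higher. Lipa was lower at 3 and 6 h only among the times tested, Pnpla2 was higher at 6 and 12 h, and Mgll and G0s2 did not pass the threshold at any time. At 3 h 0 of the 8 genes were called higher and 1 lower, against 5.10% and 4.09% of the 13003 genes tested. At each later time 2 were called higher and 2 lower, where the shares of all genes were 12.1% higher and 10.9% lower (6 h), 13.6% higher and 12.1% lower (12 h), and 17.2% higher and 15.5% lower (24 h). Treated and PTU-fed mice did not overlap for 2, 3, 4 and 5 of the 8 genes at 3, 6, 12 and 24 h, against 16%, 26%, 26% and 29% of all genes tested. Hr, a known TH target, rose by 3.57 (SE 0.31) on the log2 scale at 3 h (adjusted p = 1.33e-07) and by 4.57 (SE 0.31) at 24 h (adjusted p = 7.22e-10), and Thrsp by 0.68 (SE 0.21) at 24 h (adjusted p = 0.0175), with -0.13 (SE 0.21) at 3 h (adjusted p = 0.746).

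Pnpla2, the gene of ATGL, had normalized counts of 11574, 14931, 16116 and 15508 in the 4 PTU-fed WT mice. The mice at 6 h had 26094, 17898, 20807 and 27976, those at 12 h had 16632, 27881, 18416 and 18515, and those at 24 h had 17962, 16674, 21504 and 18756. At each of these times every treated mouse was above every PTU-fed mouse, while at 3 h (15340, 25973, 16606 and 18186) the groups overlapped. The log2 fold change was 0.66 (SE 0.18) at 6 h (adjusted p = 0.0117) and 0.49 (SE 0.18) at 12 h (adjusted p = 0.0484), and it missed the threshold at 3 h (0.37, SE 0.18, adjusted p = 0.209) and at 24 h (0.36, SE 0.18, adjusted p = 0.131). The call at 6 h held with each mouse left out in turn. The call at 12 h was lost without any 1 of 7 mice (B2, B3, B4, B5, B20, B21 or B23), with adjusted p between 0.0535 and 0.22, and it was 0.31 on the log2 scale without mouse B20. It was also lost without mitochondrial genes (adjusted p = 0.054).

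Lipe, the gene of HSL, was called lower at 12 and 24 h. The PTU-fed mice had 8824, 8986, 10089 and 9276 normalized counts, and the mice at 3 h (8454, 11281, 10297 and 7259) spread to both sides of them. The mice at 6 h had 8084, 8289, 8154 and 8791. At 12 h the counts were 4699, 6427, 5805 and 4272 and at 24 h they were 5380, 6691, 6357 and 6159. All mice at 6, 12 and 24 h were below all PTU-fed mice, and the log2 fold change at 6 h was -0.17 (SE 0.13, adjusted p = 0.349). Lipe fell by 0.80 (SE 0.13) on the log2 scale at 12 h (adjusted p = 0.000102) and by 0.60 (SE 0.13) at 24 h (adjusted p = 0.00131). Its step from 6 to 12 h, a decrease of 0.63 (SE 0.13), was the only one of the 8 members' steps between neighbouring times that passed (adjusted p = 0.0144), where 2.95% of genes were called. The other steps had 0 members called, against 2.80% of genes from 3 to 6 h and 11.4% from 12 to 24 h. At an unadjusted p under 0.05 these steps had 0 and 3 members, where 2132 and 3448 of the 13003 genes tested passed. With DESeq2 the step from 12 to 24 h called 1644 of 12955 genes and 2 members, Mgll at -0.44 (adjusted p = 0.0328) and Lipa at 0.48 (adjusted p = 0.0316). With 1 mouse left out, Lipa passed at this step without B20 or B28, Mgll without B23 or B27 and Abhd5 without B27 (adjusted p 0.0308 to 0.0439). The values of these mice are shared between neighbouring comparisons.

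Mgll, the gene of monoglyceride lipase, was not called at any time. Its PTU-fed values were 4806, 5491, 4966 and 5557, and at 24 h they were 3089, 3957, 4895 and 4648, with mouse B27 inside the PTU range. The log2 fold changes were 0.09 (SE 0.15), 0.11 (SE 0.15), 0.10 (SE 0.15) and -0.33 (SE 0.15) at 3, 6, 12 and 24 h, and the last had an adjusted p of 0.0907, or 0.0453 without mouse B27.

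Abhd5, whose protein CGI-58 activates ATGL, had the largest decrease at 24 h among the members. The PTU-fed WT mice had 3224, 3125, 3409 and 2586 normalized counts. At 12 h the values were 2098, 1549, 2159 and 1561, and at 24 h they were 1005, 1088, 1861 and 1383. Every mouse at 12 and 24 h was below every PTU-fed mouse, whereas mice B9 (2670.2) and B11 (2791) at 3 h and B12 at 6 h (2741) lay inside the PTU range. The log2 fold change was -0.45 (SE 0.20) at 3 h (adjusted p = 0.172), -0.59 (SE 0.20) at 6 h (adjusted p = 0.0399), -0.73 (SE 0.20) at 12 h (adjusted p = 0.0107) and -1.21 (SE 0.21) at 24 h (adjusted p = 0.00012), a fold of 0.432. The call at 6 h was lost without any 1 of 6 mice (B2, B3, B4, B13, B15 or B17), with adjusted p between 0.0719 and 0.143, and also in the fit of all 30 mice (adjusted p = 0.117). The calls at 12 and 24 h held with each mouse left out.

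The levels of general fat cell markers moved with these decreases. The summed normalized count of Adipoq, Plin1, Fabp4, Pparg and Cidec was 116713 to 133283 in PTU-fed WT mice and 55011 to 57729 at 24 h. The sum of the 6 brown adipocyte markers went the other way, from 81043 to 109416 on PTU to 110943 to 212107 at 24 h, and endothelial markers were 3849 to 4131 and 3727 to 4225. The brown adipocyte sum holds Ucp1, which itself rose by 0.93 (SE 0.21) on the log2 scale at 24 h (adjusted p = 0.00164). It also holds Dio2, at 1.37 (SE 0.53, adjusted p = 0.0510). The part of these shifts in the values of Abhd5 and Lipe was not tested, and in bulk tissue fewer cells of a type and less RNA per cell cannot be told apart.

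Pnpla3 rose by 24 h. The PTU-fed values were 986, 996, 1403 and 1345, the values at 24 h were 2862, 3253, 1813 and 2184, and none of the 24 h mice was within the PTU range. The log2 fold change was 1.09 (SE 0.26, adjusted p = 0.0026, fold 2.13) at 24 h. It was 0.64 (SE 0.26) at 3 h (adjusted p = 0.123), where the 4 mice (2223, 1781, 2014 and 1483) were also above all PTU-fed mice, 0.39 (SE 0.26) at 6 h (adjusted p = 0.283) and 0.64 (SE 0.26) at 12 h (adjusted p = 0.0732). In a fit of only the groups compared, it passed at 3 h (adjusted p = 0.0232) and at 12 h (adjusted p = 0.0333), as it did with no filter on low counts at 3 h (adjusted p = 0.0377) and 12 h (adjusted p = 0.0182) and at 12 h with DESeq2 (adjusted p = 0.0446) or without mouse B23 (adjusted p = 0.0362).

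Lipa, the gene of lysosomal acid lipase, was lower early after TH and overlapped its PTU level later. It had 2252, 2002, 1891 and 2655 normalized counts on PTU, 1358, 1768, 1271 and 1580 at 3 h and 1403, 1501, 1524 and 1881 at 6 h. All 8 early mice were below all PTU-fed mice. At 24 h the values were 2778, 3214, 2465 and 2190, which overlap the PTU range. Lipa fell by 0.58 (SE 0.16) on the log2 scale at 3 h (adjusted p = 0.0249) and by 0.50 (SE 0.16) at 6 h (adjusted p = 0.0278), with -0.21 (SE 0.16) at 12 h (adjusted p = 0.351) and 0.27 (SE 0.16) at 24 h (adjusted p = 0.196). The call at 3 h was lost without mouse B2, B5, B7 or B9 (adjusted p 0.0556 to 0.0942) and that at 6 h without mouse B2, B5, B12, B13 or B15 (adjusted p 0.0558 to 0.103). Of 11 other lysosomal genes, 2 rose and 0 fell at 3 h, with a median log2 fold change of 0.17 against 0.01 over all genes tested (5.10% called higher and 4.09% lower). At 6 h 2 rose and 0 fell (12.1% and 10.9% of all genes), at 12 h 4 rose and 0 fell (13.6% and 12.1%), and at 24 h 3 rose and 2 fell (17.2% and 15.5%), with a median at 24 h of 0.03 against 0.01.

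Both inhibitors of ATGL were examined. Hilpda, a small lipid droplet protein, had 19.1, 15.5, 6.6 and 6.9 normalized counts on PTU. The mice at 6 h had 16.3, 19.3, 32.4 and 27.3. Those at 12 h had 22.2, 33.1, 22.8 and 36.9, and those at 24 h had 38.7, 33.9, 46.7 and 32.4. Every mouse at 12 and 24 h was above every PTU-fed mouse, and the means at 3, 6, 12 and 24 h were 21.7, 23.8, 28.7 and 37.9 against 12.0 on PTU. The log2 fold change was 0.86 (SE 0.33) at 3 h (adjusted p = 0.11), 1.00 (SE 0.33) at 6 h (adjusted p = 0.0326), 1.25 (SE 0.33) at 12 h (adjusted p = 0.00808) and 1.66 (SE 0.32) at 24 h (adjusted p = 0.000401, fold 3.17). The call at 6 h was lost without mouse B4, B5, B15 or B17 (adjusted p 0.0829 to 0.124) and in a fit of only the 2 groups compared (adjusted p = 0.0599), whereas those at 12 and 24 h held with each mouse left out.

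G0s2, the other inhibitor, varied widely between treated mice. It had 1477, 2034, 1601 and 2062 normalized counts on PTU, and at 24 h the values were 949, 2103, 4074 and 3044. At 12 h they were 1836, 1449, 3692 and 4025, so that treated mice lay on both sides of the PTU range. Its log2 fold changes were -0.36, -0.53, 0.62 and 0.50 at 3, 6, 12 and 24 h, each with an SE of 0.43, and the lowest adjusted p was 0.305. The difference between 12 and 6 h was 1.15 (SE 0.43, adjusted p = 0.147, or 0.0173 with no filter on low counts).

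**Figure D2:**
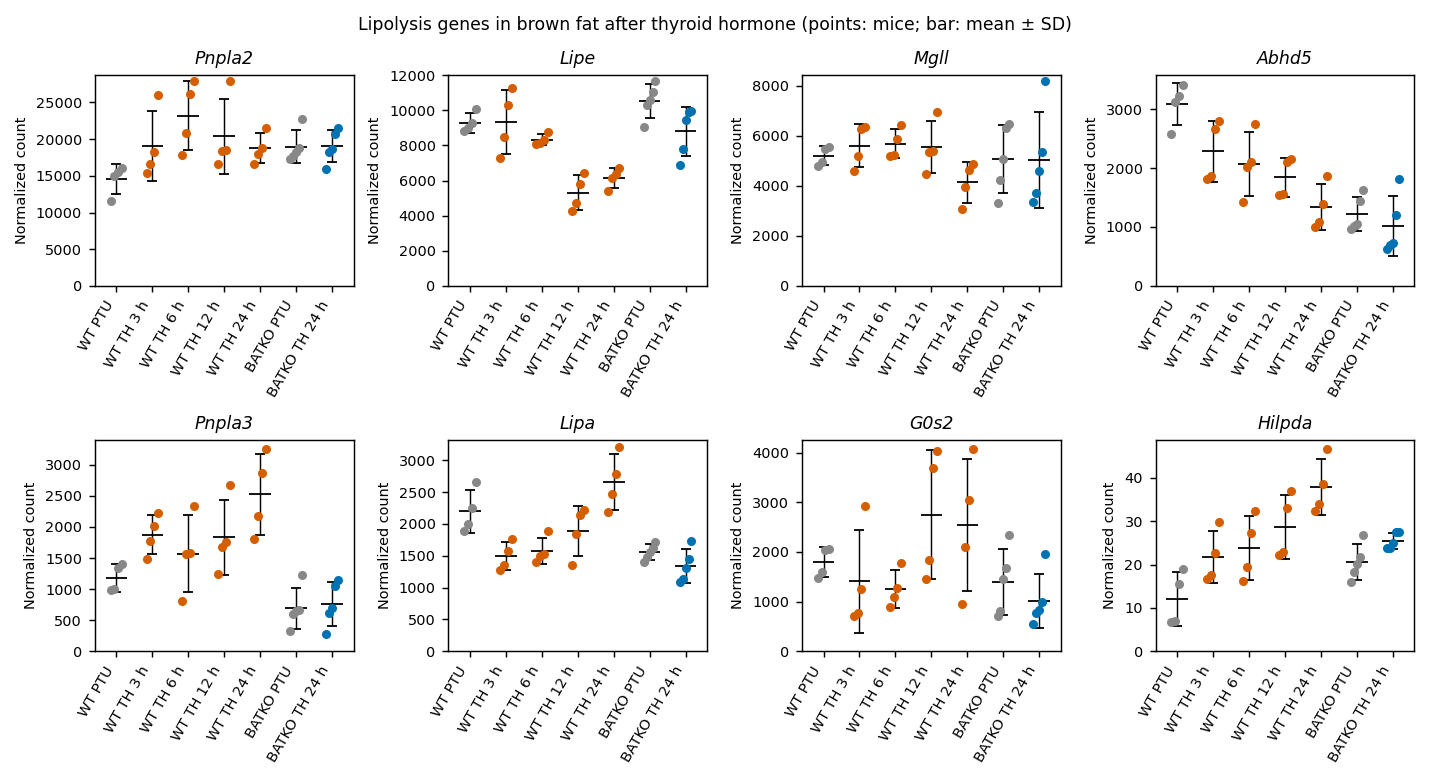
Normalized counts of the 8 genes in each mouse of the TH experiment; points are mice, horizontal bars are means and whiskers are SD, with mice without TH in grey, treated WT mice in orange and treated BATKO mice in blue. Abhd5 and Lipe are lower and Hilpda and Pnpla3 higher in WT mice at 24 h than on PTU, and the groups do not overlap for these 4 genes or for Pnpla2, where 29% of all genes tested do not overlap.

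Within a mouse, the ratio of Lipe to Pnpla2 raw counts does not depend on the scaling between mice. Its median was 0.61 on PTU (range 0.60 to 0.76), 0.49 at 3 h (0.40 to 0.62), 0.35 at 6 h (0.31 to 0.46), 0.26 at 12 h (0.23 to 0.32) and 0.31 at 24 h (0.30 to 0.40). The ratio was thus lower in all mice at 6, 12 and 24 h than in any PTU-fed mouse. This follows from Pnpla2 being above and Lipe below all PTU-fed mice at these times, and is no separate support. The share of other gene pairs without overlap was not computed. The ratio of Pnpla2 to Hilpda had a median of 1602 on PTU (606 to 2427) and 478 at 24 h (460 to 579), also without overlap, and that of Pnpla2 to G0s2 had 7.68 on PTU (7.34 to 10.1) and 7.05 at 24 h (5.28 to 18.9), with overlap.

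Of 20 further lipolysis genes (perilipins, Cide proteins, adrenergic and antilipolytic receptors, protein kinase A subunits and lipid carriers), more were called lower than higher at each time after TH. At 3 h 0 rose and 1 fell, where 5.10% of all genes tested were called higher and 4.09% lower. At 6 h 2 rose and 6 fell (12.1% and 10.9% of all genes), at 12 h 2 rose and 9 fell (13.6% and 12.1%), and at 24 h 1 rose and 11 fell (17.2% and 15.5%). Their median log2 fold change at 24 h was -0.61 against 0.01 over all genes tested. The largest changes at 24 h were those of Hcar1, the antilipolytic lactate receptor, at -2.39 (adjusted p = 0.000275), and of Cidec, a lipid droplet fusion protein, at -2.34 (adjusted p = 8.13e-08). Cidec is also one of the fat cell markers summed above.

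In BATKO mice, TH changed none of the 8 genes past the threshold. With edgeR 0 of 14178 genes were called and with DESeq2 also 0, while 673 genes and 1 member, Lipe, had an unadjusted p under 0.05. Hr, the TH target that rose in WT mice, had a log2 fold change of 0.50 (SE 0.39, adjusted p = 0.964) here. Hilpda had 18.3, 20.2, 26.8, 21.8 and 15.9 normalized counts in BATKO mice on PTU and 27.6, 27.5, 25.0, 23.8 and 23.9 after TH, a log2 fold change of 0.31 (SE 0.24, adjusted p = 0.964). Abhd5 had 1626, 1050, 1021, 967 and 1436 on PTU and 735, 625, 700, 1207 and 1813 after TH. Those 2 groups overlapped, with mice 10 and 15 after TH above the lowest untreated mouse, and the log2 fold change was -0.27 (SE 0.23, adjusted p = 0.97). Lipe had 9032 to 11666 on PTU and 6899 to 9932 after TH, ranges that overlap, with -0.26 (SE 0.12, adjusted p = 0.963).

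The difference between the BATKO and WT responses was itself tested as an interaction, and 12.3% of genes passed. Hilpda was the 1 member called: its 24 h response was 1.36 lower on the log2 scale in BATKO than in WT mice, that is -1.36 (SE 0.37, adjusted p = 0.0155), with an interval of 2 SE from -2.10 to -0.61. This call held with each of the 18 mice left out in turn. For Abhd5 the difference was 0.94 (SE 0.35, adjusted p = 0.0752), with an interval of 0.24 to 1.65, and it passed without WT mouse B27 (adjusted p = 0.0384) or BATKO mouse 8 (adjusted p = 0.0376) or 9 (adjusted p = 0.047) and with no filter on low counts (adjusted p = 0.0407). For Pnpla3 it was -0.97 (SE 0.46, adjusted p = 0.176, interval -1.89 to -0.04) and for Lipe 0.34 (SE 0.18, adjusted p = 0.233, interval -0.02 to 0.70). For Pnpla2, Mgll, Lipa and G0s2 it was -0.36, 0.31, -0.49 and -0.97, none of them called. Lipa passed without BATKO mouse 8 (-0.60, adjusted p = 0.0498). Of the 20 further lipolysis genes, 9 were called in the interaction, all of them with a response that was higher in BATKO than in WT mice, where 5.12% of all genes tested were called higher. The sum of general fat cell markers was 115642 to 132780 on PTU and 96220 to 161003 after TH in BATKO mice. In WT mice it was 116713 to 133283 and 55011 to 57729 at 24 h, and its part in these differences was not tested. The WT mice compared are the same as in the time course.

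BATKO and WT mice of this experiment also differed before TH, in many genes. On PTU 5 members were called, against 70.3% of the 14178 genes tested, and at 24 h after TH again 5, against 69.7%, so these counts are near the background. In the temperature and diet experiments genotype comparisons called between 0 and 2.16% of genes. Whether WT and BATKO libraries were made together is not given in the sources used here, and genotype and library preparation cannot be told apart. Cell type markers differed as well. The summed brown adipocyte markers were 21274 to 33599 in BATKO and 81043 to 109416 in WT mice on PTU, white adipocyte markers 326 to 615 and 1375 to 1542, and endothelial markers 5112 to 5749 and 3849 to 4131. Of the brown adipocyte markers, Ucp1 was at -1.99 (SE 0.23) and Dio2 at -2.70 (SE 0.56) on the log2 scale in BATKO against WT mice on PTU. The sums of general fat cell markers overlapped, at 115642 to 132780 and 116713 to 133283. The part of these differences in the members' values was not tested. On PTU, Abhd5 was lower in BATKO than in WT mice at -1.34 (SE 0.25, adjusted p = 2.07e-05), with all 5 BATKO mice below all WT mice (59.8% of genes tested did not overlap), and Lipa was lower at -0.50 (SE 0.15, adjusted p = 0.00372). Pnpla3 was at -0.77 (adjusted p = 0.0365), Hilpda at 0.79 (adjusted p = 0.0145) and Pnpla2 at 0.38 (adjusted p = 0.0345). Each of these 3 calls was lost without some single mouse, Pnpla3 without any 1 of 6 mice (adjusted p up to 0.105), Hilpda without WT mouse B4 (adjusted p = 0.104) or B5 (adjusted p = 0.0768) and Pnpla2 without WT mouse B2 (adjusted p = 0.157), WT mouse B3 (adjusted p = 0.0648) or BATKO mouse 4 (adjusted p = 0.0983). After TH, Pnpla3 was at -1.74 (SE 0.33, adjusted p = 2.93e-05), Lipa at -0.99 (SE 0.15, adjusted p = 8.02e-07), G0s2 at -1.33 (SE 0.42, adjusted p = 0.00659), Lipe at 0.52 (SE 0.13, adjusted p = 0.000838) and Hilpda at -0.57 (SE 0.24, adjusted p = 0.0381). This call of Hilpda was lost without WT mouse B24 or B27 or BATKO mouse 9, 10 or 15 (adjusted p 0.0525 to 0.136), with the size factors of DESeq2 (adjusted p = 0.052) and with no filter (adjusted p = 0.0713). Abhd5 was at -0.40 and not called, but it passed without BATKO mouse 15 (-0.74, adjusted p = 0.00478).

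The temperature experiment asked how BAT responds to cold, the stimulus that activates heat production. At 4 °C against 30 °C, Mgll, Abhd5 and Lipa were higher in both genotypes, while Pnpla2, Lipe and Pnpla3 were called in neither. In CTRL mice 4 members rose and 0 fell, against 49.1% of the 13267 genes tested called in either direction with 26.5% called higher and 22.6% lower. In BATKO mice 3 rose and 1 fell, against 40.3%, with 21.4% called higher and 18.9% lower. Cold and 30 °C mice did not overlap for 4 members in each genotype, against 50.4% of genes tested in CTRL and 31.2% in BATKO mice. The sum of general fat cell markers was 54394 to 68238 at 30 °C and 109948 to 120144 at 4 °C in CTRL mice, and 56237 to 65764 and 109406 to 134143 in BATKO mice, and its part in the members' values was not tested. Ucp1 rose by 4.40 (SE 0.52) on the log2 scale in CTRL mice (adjusted p = 4.56e-06) and by 3.43 (SE 0.44) in BATKO mice (adjusted p = 2.22e-05), and Dio2, the enzyme that activates thyroid hormone, by 3.83 (SE 0.92, adjusted p = 0.00253) and 3.21 (SE 0.80, adjusted p = 0.00432).

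Mgll had the largest response to cold among the members in CTRL mice. At 30 °C the CTRL mice had 3160, 3109, 2559 and 3052 normalized counts and at 4 °C they had 14271, 13470 and 9263. The lowest cold mouse was well above the highest mouse at 30 °C, and the log2 fold change was 2.05 (SE 0.19, adjusted p = 4.44e-07, fold 4.15). In BATKO mice Mgll rose from 2945, 3849, 3401, 4375 and 4784 to 7255, 9795, 9258 and 7431, also without overlap, with a log2 fold change of 1.12 (SE 0.16, adjusted p = 6.52e-05, fold 2.18). The difference between the responses was -0.93 (SE 0.25, adjusted p = 0.075, interval of 2 SE -1.43 to -0.43), in an interaction test that called 1.12% of genes and 0 members. At an unadjusted p under 0.05 that test had 2 members and 2471 of the 13267 genes tested. The difference for Mgll passed with DESeq2 (adjusted p = 0.0115, 1 member and 656 of 13213 genes called). It also passed without BATKO mouse 13 (adjusted p = 0.0495) or CTRL mouse 5 (adjusted p = 0.0203).

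Abhd5 rose in the cold in both genotypes. CTRL mice had 662, 545, 568 and 640 normalized counts at 30 °C and 1566, 2329 and 2119 at 4 °C. BATKO mice had 561, 493, 722, 570 and 617 at 30 °C and 2474, 2635, 2300 and 1763 at 4 °C. In both genotypes every cold mouse was above every mouse at 30 °C. The log2 fold change was 1.73 (SE 0.17, adjusted p = 7.24e-07, fold 3.32) in CTRL and 1.95 (SE 0.15, adjusted p = 2.24e-07, fold 3.87) in BATKO mice, and the difference of 0.22 (SE 0.22, adjusted p = 0.643) had an interval of -0.23 to 0.67. The gene that fell in WT mice 24 h after TH was thus higher in the cold, in mice of different experiments.

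Lipa rose from 893, 747, 744 and 989 to 2416, 2301 and 3195 in CTRL mice, a log2 fold change of 1.65 (SE 0.17, adjusted p = 1.48e-06, fold 3.13). In BATKO mice it rose from 879, 675, 878, 857 and 615 to 1837, 1989, 1730 and 1414, a log2 fold change of 1.16 (SE 0.15, adjusted p = 2.41e-05, fold 2.23). At 4 °C all BATKO mice were below all CTRL mice (13.2% of genes tested did not overlap), with a log2 difference of -0.60 (SE 0.17, adjusted p = 0.0785) that passed with DESeq2 (-0.63, adjusted p = 0.0144). Of the 11 other lysosomal genes, 5 rose and 2 fell in CTRL mice, where 26.5% of all genes tested were called higher and 22.6% lower. In BATKO mice 4 rose and 3 fell, against 21.4% and 18.9% of all genes. Macrophages also express Lipa. The sum of 6 macrophage markers was 747 to 1248 at 30 °C and 553 to 676 at 4 °C in CTRL mice, and 569 to 778 and 589 to 990.5 in BATKO mice, and their part in the values of Lipa was not tested.

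G0s2 was higher at 4 °C in CTRL mice, at 5391, 3775 and 3213 against 384, 1866, 1863 and 2484 normalized counts. No cold mouse overlapped the mice at 30 °C, among which mouse 19 was far below the others. The log2 fold change was 1.32 (SE 0.50, adjusted p = 0.0387), and the call was lost without CTRL mouse 1 (adjusted p = 0.144) or 2 (adjusted p = 0.063) at 4 °C and without mouse 19 (adjusted p = 0.065), 20 (adjusted p = 0.0589) or 21 (adjusted p = 0.0569) at 30 °C. In BATKO mice the change was 0.55 (SE 0.44, adjusted p = 0.338), with 1258, 2333, 1207, 4881 and 3445 at 30 °C overlapping 2969, 3393, 5070 and 3954 at 4 °C. The difference between the genotypes in this response was -0.77 (SE 0.67), with an interval of 2 SE from -2.12 to 0.57, and was not called. Hilpda went the other way and was lower in the cold in BATKO mice, at 16.2, 16.5, 27.5 and 21.5 against 31.5, 68.6, 52.0, 52.2 and 30.9. This was a log2 fold change of -1.19 (SE 0.33, adjusted p = 0.00854) without overlap. In CTRL mice it was -0.42 (SE 0.37, adjusted p = 0.367), with CTRL mouse 1 at 4 °C (40.5) among the mice at 30 °C (41.7, 39.1, 33.4 and 20.1), and the difference between genotypes of -0.78 (SE 0.49, adjusted p = 0.42) was not called.

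The neutral lipases upstream of Mgll were not called. Pnpla2 had 19595, 18360, 14630 and 17568 normalized counts at 30 °C and 19835, 23036 and 16713 at 4 °C in CTRL mice, and its log2 fold change was 0.18 (SE 0.24, adjusted p = 0.552), with an interval of 2 SE from -0.30 to 0.66. For Lipe it was 0.17 (SE 0.22, adjusted p = 0.56) and for Pnpla3 -0.11 (SE 0.28, adjusted p = 0.765). In BATKO mice the 3 values were 0.14 (SE 0.21), 0.02 (SE 0.20) and 0.12 (SE 0.24). The number of members called for cold was 4 in each genotype also without the 3 mice with the most muscle RNA. That fit called 5973 of 13057 genes in CTRL and 4246 in BATKO mice.

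Of the 20 further lipolysis genes, 12 rose and 3 fell in the cold in CTRL mice, against 26.5% of all genes tested called higher and 22.6% lower. In BATKO mice 11 rose and 4 fell, against 21.4% and 18.9%. Plin2, a coat protein of lipid droplets, rose by 3.07 on the log2 scale in CTRL mice (adjusted p = 3.88e-06). It had a mean of 1580 ± 659 normalized counts at 30 °C (SD, n = 4) and 13239 ± 3313 at 4 °C (SD, n = 3). No member differed between BATKO and CTRL mice at the same temperature in edgeR, where 2.16% of genes were called at 4 °C and 0.00754% at 30 °C. At an unadjusted p under 0.05 there were 2 members at 4 °C and 1 at 30 °C, where 2194 and 1209 of the 13267 genes tested passed. DESeq2 called 2 members at 4 °C, Lipa and Mgll (-0.58, adjusted p = 0.0426), and 0 at 30 °C, with 650 and 8 of 13213 genes. In edgeR Mgll passed at 4 °C without CTRL mouse 5 (-0.75, adjusted p = 0.0406).

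**Figure D3:**
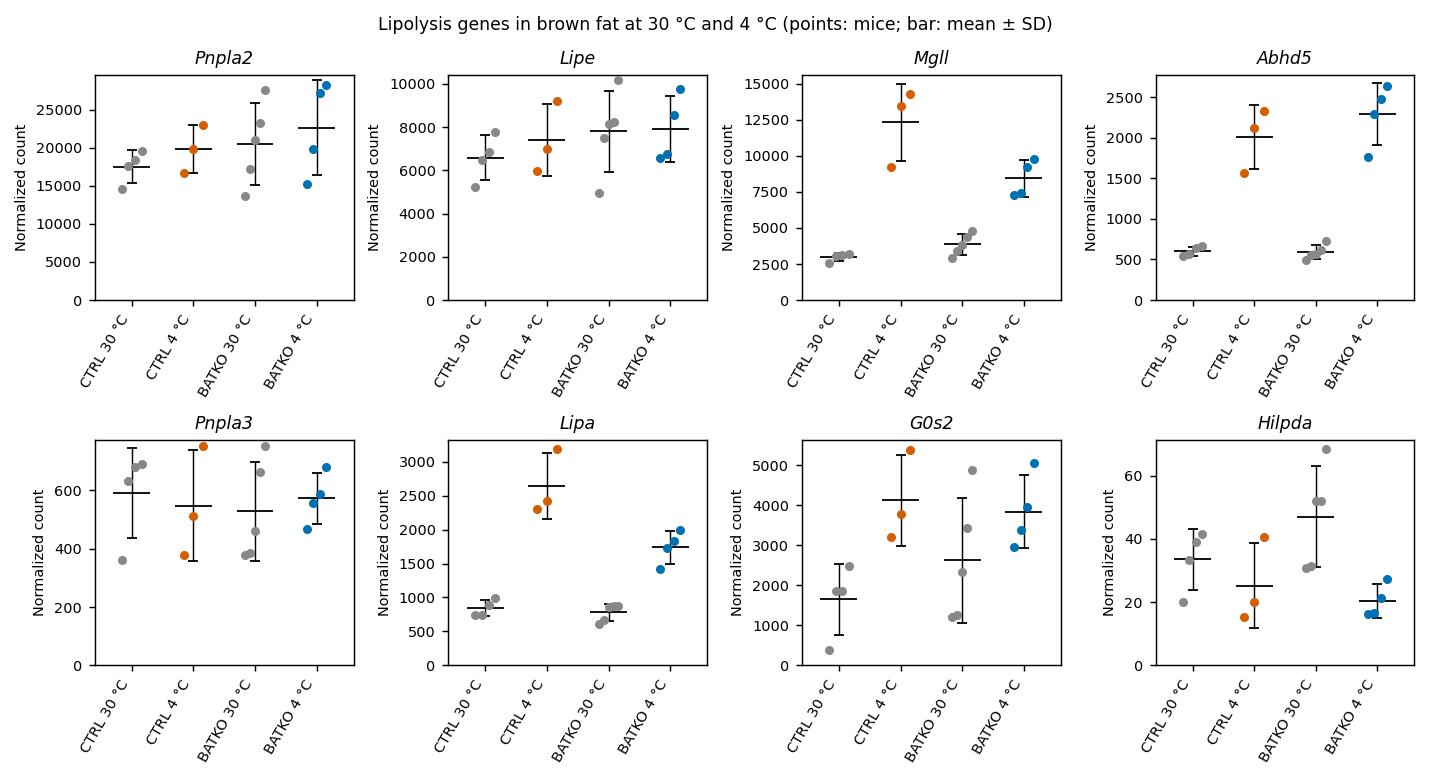
Normalized counts of the 8 genes in each mouse at 30 °C (grey) and 4 °C (CTRL orange, BATKO blue); points are mice, horizontal bars are means and whiskers are SD. Mgll, Abhd5 and Lipa are higher in every cold mouse of both genotypes, and Pnpla2, Lipe and Pnpla3 overlap between temperatures. Cold and 30 °C mice do not overlap for 50.4% of all genes tested in CTRL and 31.2% in BATKO mice.

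On HFD against chow, Mgll was the 1 member called in CTRL mice, against 3.94% of the 12932 genes tested. It had 1606, 1525, 2129 and 1791 normalized counts on chow and 2370, 2663, 2910 and 3360 on HFD, without overlap, as for 10.7% of genes tested. The log2 fold change was 0.68 (SE 0.14, adjusted p = 0.0208, fold 1.60), and the call was lost without CTRL mouse 1 (adjusted p = 0.0549), 2 (adjusted p = 0.0768), 4 (adjusted p = 0.0537) or 11 (adjusted p = 0.0634). In the same CTRL mice fibroblast or preadipocyte markers were 2414 to 4274 on chow and 4478 to 6956 on HFD and macrophage markers 572 to 659 and 773 to 2062, and their part in the value of Mgll was not tested. BATKO mice had 1705 and 2087 on chow and 2651, 2684 and 3598 on HFD, with a log2 fold change of 0.65 (SE 0.19, adjusted p = 0.15). This comparison called 0.0696% of genes and 0 members in edgeR. At an unadjusted p under 0.05 it had 1 member and 1996 of the 12932 genes tested. With DESeq2 it called Mgll (adjusted p = 0.0457), among 226 of 12897 genes. The difference between the genotypes in the response of Mgll was -0.03 (SE 0.24, adjusted p = 0.997), with an interval of -0.50 to 0.44.

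Abhd5 had log2 fold changes of 0.32 (SE 0.17, adjusted p = 0.292) in CTRL and 0.41 (SE 0.22, adjusted p = 0.383) in BATKO mice on HFD, which did not pass. Pnpla2, Lipe and G0s2 were between -0.15 and -0.04 in both genotypes, and Hilpda was at 0.47 (SE 0.23) in CTRL mice (adjusted p = 0.249). Lipa had 881, 862, 760 and 898 normalized counts on chow and 803, 782, 1507 and 927 on HFD in CTRL mice, in which mouse 10 was highest. In that mouse the macrophage markers were also highest, at 2062 against 773 for the lowest mouse of the group, and their part in its Lipa value was not tested. In BATKO mice Lipa had 1095 and 1083 on chow and 842, 965 and 680 on HFD, without overlap, as for 36.4% of all genes tested with these 2 and 3 mice, and its log2 fold change was -0.39 (SE 0.23, adjusted p = 0.436) against 0.24 (SE 0.18, adjusted p = 0.467) in CTRL mice. The macrophage markers of BATKO mice were 1331 to 1642 on chow and 601 to 1210 on HFD, and their part in these values and in the difference between the genotypes was not tested. BATKO and CTRL mice on the same diet differed in 0 genes in edgeR. Of the members, 2 had an unadjusted p under 0.05 on HFD and 0 on chow, where 691 and 1024 of the 12932 genes tested passed. DESeq2 called 9 and 33 genes and 0 members. The interaction of diet and genotype called 0 genes in edgeR (740 genes at an unadjusted p under 0.05) and 0 in DESeq2. The 1 member with an unadjusted p under 0.05 was Lipa, at -0.63 (SE 0.29, adjusted p = 0.869), with an interval of 2 SE from -1.22 to -0.05.

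**Figure D4:**
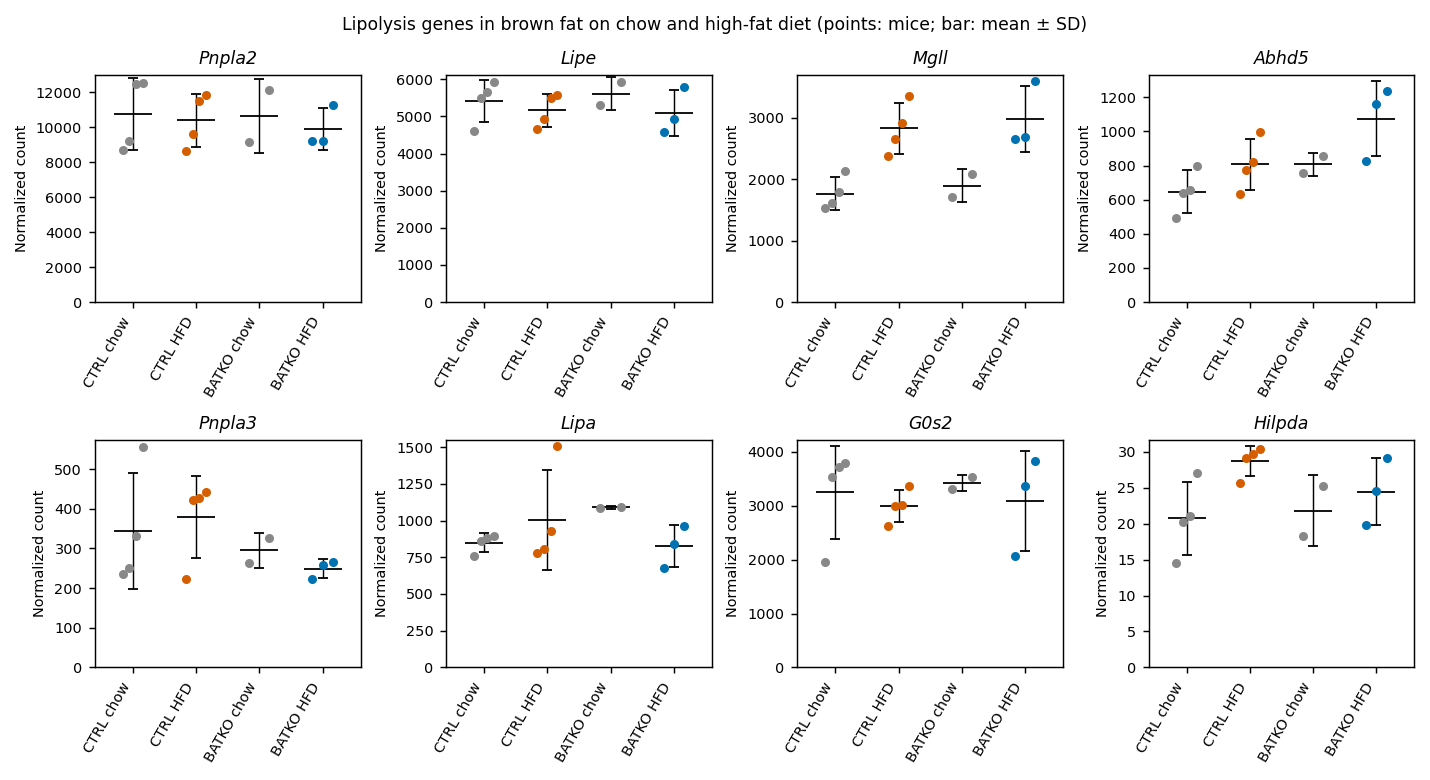
Normalized counts of the 8 genes in each mouse on chow (grey) and HFD (CTRL orange, BATKO blue); points are mice, horizontal bars are means and whiskers are SD. Mgll is higher in every mouse on HFD than in any on chow of the same genotype, at 2370 to 3360 against 1525 to 2129 in CTRL mice. The groups do not overlap for 10.7% of all genes tested in CTRL mice. In BATKO mice this share is 36.4%, and Mgll was not called there in edgeR.

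Across the 3 stimuli, Mgll was called for cold in both genotypes and for HFD in CTRL mice, but not for TH. Its HFD call was lost without some single mice, and at 24 h after TH it passed without mouse B27. Abhd5 was lower after TH and higher in the cold, and Lipa was lower early after TH and higher in the cold. Pnpla2, Lipe and Pnpla3 were called for TH alone, and G0s2 for cold alone, in CTRL mice. Hilpda was higher after TH in WT mice and lower in the cold in BATKO mice. The cold responses of G0s2 and Hilpda did not differ between genotypes past the threshold. Differences between stimuli were not tested, since each experiment has its own mice and normalization.

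**Figure D5:**
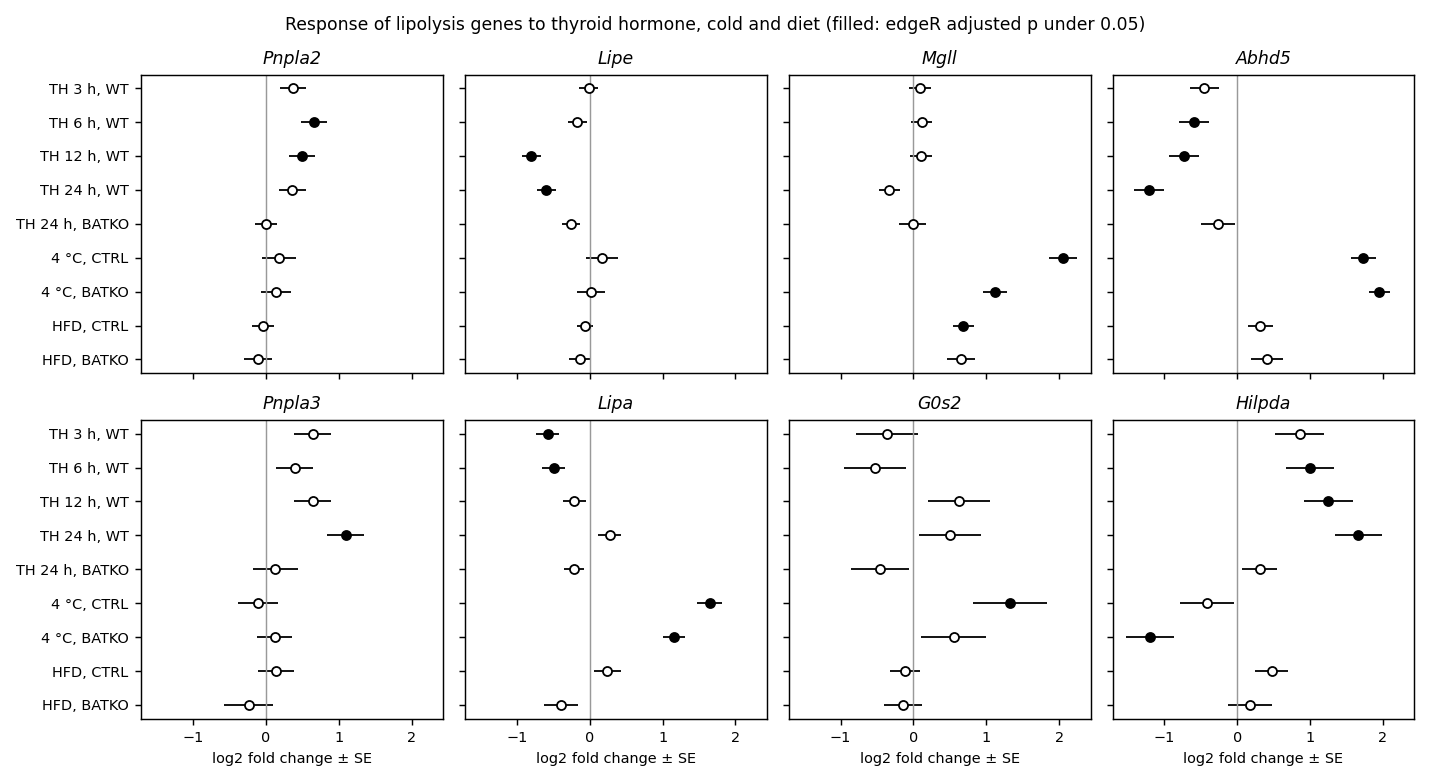
log2 fold change (points, with SE as horizontal lines) of each of the 8 genes for TH against PTU, 4 °C against 30 °C and HFD against chow; filled points have an adjusted p under 0.05 in edgeR. Abhd5 has filled points on the left for TH, down to -1.21, and on the right for cold, up to 1.95.

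Across the 20 WT mice of the TH experiment, the genes whose log2 CPM followed each member most closely were named, as a description, since all values share the treatment groups. Pnpla2 was followed by Epn1 (Pearson's r = 0.94) and Emc10 (0.90), Lipe by Nicn1 (0.92) and Parm1 (0.91) and Abhd5 by Slc35f5 (0.94) and Ddhd2 (0.93), itself a lipase of the phospholipase family. Mgll was followed by Saraf (0.84) and Ptpa (0.81), Lipa by Osgin1 (0.88) and Mtap (0.88) and G0s2 by Guk1 (0.80) and B4galt4 (0.77). Pnpla3 was followed by F3 (0.84) and by Mlxipl (0.84), which encodes the carbohydrate response factor ChREBP. Hilpda was followed by Lgmn (0.85) and Mrs2 (0.85).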

How the data were processed

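RNA-seq of BAT from 59 mice was used. The labels give Trizol extraction and a total RNA SENSE library kit (Lexogen), and the submitters' processing notes list Bowtie2 (version 2.3.2.2) and DESeq2. For the re-analysis in its atlas, the paper describes alignment to GRCm38, removal of reads of low mapping quality and counting with htseqcount. The paper does not describe the temperature and diet experiments. The deposited values are raw counts per gene, not normalized. Annotation and strand setting are not given in the sources used here. Each column was matched to a mouse by its labels. No library was a copy of another of its group (91 pairs, chi-square of the counts at least 6.81 per degree of freedom).

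The main test was the quasi-likelihood test of edgeR (version 4.0.16, in R version 4.3.3) with TMM factors. Genes needed a mean above 10 normalized counts, p-values were adjusted by the Benjamini-Hochberg method, and the threshold was 0.05. WT time points were fitted over 20 mice, BATKO responses to TH and the interaction over 30, temperature over 16 and diet over 13. Standard errors were derived from the F statistic. In simulated data of 4 mice against 4, with few genes changed, 70.6% of 2-fold and 94.8% of 4-fold changes were recovered. The simulation fitted only the groups compared and changed far fewer genes than were called at 24 h. Its rates therefore do not give the recovery of the fits used here. The alternatives were DESeq2 (version 1.42.0), its size factors (RLE), other filters, no mitochondrial genes, other sets of mice and each mouse left out. The alternative without the 3 mice with the most muscle RNA was added after seeing the data.

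The 8 members are named throughout. Of 20 further lipolysis genes the 2 with the largest called change at 24 h after TH and in the cold are named, except 1 that is not reported here, and for each member the 2 genes of highest Pearson correlation (log2 CPM, prior count 2) with a mean above 50. Hr, Thrsp, Ucp1 and Dio2 served as checks of the treatments. Members and lists were chosen with earlier results of these data known.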

Additional observations from a re-analysis of the deposited data

Results flagged for a closer look

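The 8 genes were each examined in the 12 groups of 4 or 5 mice. In 4 of these 96 sets of values, 1 mouse stood apart from the others by Dixon's test, where chance gives 4.8. G0s2 in CTRL mouse 2 on chow had 1956 normalized counts against 3528 to 3797 in the others, with a gap of 0.854 of the group's range. Pnpla3 in CTRL mouse 10 on HFD had 224 against 421 to 444, with a gap of 0.900. Pnpla2 in WT mouse B20 at 12 h after TH had 27881 against 16632 to 18515, with a gap of 0.833. Pnpla2 in BATKO mouse 4 on PTU had 22785 against 17266 to 18845, with a gap of 0.714. Mouse 10 on HFD is also the mouse with the highest Lipa and the highest macrophage markers of its group.

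Hilpda was the member whose 24 h response to TH differed between genotypes by the interaction test, with -1.36 on the log2 scale in BATKO relative to WT mice (SE 0.37, adjusted p = 0.0155 in edgeR). It rose in WT mice, where its values were 6.6 to 19.1 on PTU and 32.4 to 46.7 after TH, and it had 15.9 to 26.8 and 23.8 to 27.6 in BATKO mice. The 5 treated BATKO mice were below all 4 treated WT mice, in a comparison in which 54.6% of genes tested did not overlap.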

How the results depend on the processing

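No paired analysis was possible because within an experiment no mouse number is shared between groups of the same genotype, and numbers that recur between genotypes or experiments only name a mouse. Of 1083 log2 fold changes of members under alternatives other than leaving out a mouse, 1059 kept their side of the threshold, 5 lost their call and 19 gained one, and over all 2595, with mice left out, no called value changed its sign. With a mean count above 50 Hilpda was not tested, since its mean is lower. The causes of the moves below were not tested.

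With mice left out in turn, the members called ranged from 0 to 1 for TH at 3 h, from 1 to 3 for TH at 6 h, from 0 to 2 between 12 and 24 h, from 1 to 3 for the interaction of TH and genotype, from 3 to 4 for BATKO against WT on PTU, from 0 to 1 for BATKO against CTRL at 4 °C, from 0 to 1 for the cold interaction and from 0 to 1 for HFD in CTRL mice. The genes called ranged from 684 to 1311 for TH at 3 h, from 103 to 408 between 3 and 6 h, from 111 to 380 between 6 and 12 h, from 889 to 1700 between 12 and 24 h, from 0 to 1 for TH in BATKO mice, from 53 to 565 for BATKO against CTRL at 4 °C, from 5 to 907 for the cold interaction, from 0 to 9 for HFD in BATKO mice, from 166 to 716 for HFD in CTRL mice and from 0 to 10 for BATKO against CTRL on HFD. A group left with 1 BATKO mouse on chow is assumed to vary like the other groups.

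Members called under other settings were 2 with DESeq2, 2 with no filter, 1 with a mean count above 50, 1 without mitochondrial genes and 1 in the fit of all 30 mice between 12 and 24 h (main 0). They were 2 with no filter and 2 with only the groups compared for TH at 3 h (main 1), 2 with no filter between 6 and 12 h (main 1), and 2 with no filter and 0 with a mean count above 50 for the TH interaction (main 1). For BATKO against CTRL at 4 °C they were 2, for the cold interaction 1 and for HFD in BATKO mice 1 with DESeq2 (main 0 each), and 1 with no filter for HFD in BATKO mice.

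Genes called with DESeq2 were 549 between 3 and 6 h (main 364), 615 between 6 and 12 h (384), 650 for genotype at 4 °C (286) and 8 at 30 °C (1), 656 for the cold interaction (149), 872 for HFD in CTRL mice (509) and 226 in BATKO mice (9), and 9 and 33 for genotype on HFD and on chow (0 each). With no filter they were 637 between 3 and 6 h, 606 between 6 and 12 h, 1280 and 336 for HFD in CTRL and BATKO mice, 59 and 290 for genotype on HFD and chow and 216 for the diet interaction (main 0). With only the groups compared they were 790 between 12 and 24 h (main 1480), 61 for genotype at 4 °C, 321 and 66 for HFD in CTRL and BATKO mice and 114 for genotype on chow. The fit of all 30 mice called 190 between 3 and 6 h, and the fit without the 3 mice with the most muscle RNA called 10 for the cold interaction.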
